A study of Homo sapiens
Mus musculus with 24 samples.

Results

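The epithelial programme described here is a set of 37 human genes, counted in tumors that grew from MDA-MB-231 cells in mice. Of the 18880 human genes in the deposited tables, all 37 members were found by symbol, and all 37 passed the filter on low counts. The set was selected on earlier results from these same 24 libraries, together with what the genes are known to do, so the levels and group differences of the members are given as a description and support nothing by themselves. MDA-MB-231 is a human breast adenocarcinoma line used as a model of TNBC, breast cancer without the usual hormone and growth factor receptors. The hosts were female Rag1 null mice of the B6/Rag1KO strain, which lack mature B and T cells, and each tumor grew under the skin at the base of the neck after injection at 14 weeks of age. On a high-fat diet, animals whose tumors had reached some 200 mm3 were assigned at random to 4 treatments that lasted 4 weeks. These were weekly injections of saline (CTRL, n = 4), doxorubicin (2 mg/kg) and cyclophosphamide (100 mg/kg) each week (Chemo, n = 5), moringa seed concentrate at 0.6% of the diet (MC, n = 5) and both treatments (MC + Chemo, n = 6). Tumors of mice on a lean diet (Lean, n = 4), which were outside the randomization and carried the same deletion, were the diet control. Each library came from a different mouse and is named by group and mouse. The library MC + Chemo 5 was grouped by its title, because another field of its labels reads MC.

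Epithelial cells form sheets. E-cadherin, made from CDH1, joins neighbouring cells at adherens junctions, and claudins, occludin and their partners seal the space between them at tight junctions. Grainyhead-like, OVOL and ETS-family transcription factors keep such genes on, and ESRP splicing factors give many transcripts their epithelial form. Membrane-anchored serine proteases and their inhibitors act at the same cell borders, and polarity and traffic proteins keep the upper and lower faces of the cell apart. The opposite state, called mesenchymal, carries vimentin and N-cadherin, and ZEB, SNAI and TWIST factors are known to repress CDH1 and its partners. MDA-MB-231 is known from culture as a mesenchymal-like line with little or no E-cadherin.

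The counts are tags from the 3′ ends of transcripts, so that a gene's normalized count (its reads divided by the size factor of the library) follows transcript number rather than length, and levels are compared here between libraries and not between genes. Human counts per library ran from 7796231 to 17621273. The members together took 0.338 to 0.767% of them (median 0.504%) in 21 of the 24 libraries. The other 3 libraries stood apart, with 0.0357% in CTRL 17, 0.0989% in CTRL 44 and 0.180% in Lean 24. Their depth was not low, with 11440465, 11718024 and 10086871 human counts, and human genes took 66.1, 70.1 and 65.4% of all counts there against 47.8 to 74.0% in the 21. Because 2 of them are among the 4 CTRL libraries, each comparison of the members with CTRL is given with and without them. In whole tumor pieces, fewer human cells of an epithelial kind and less epithelial RNA per human cell cannot be told apart.

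Genes that mark the line were present in all 24 libraries. CD44, a hyaluronan receptor, ran from 3783 to 5652 normalized counts in the 21 libraries and was 4488 in CTRL 17, 4185 in CTRL 44 and 3889 in Lean 24. The others of the 5 genes listed as high were less even. VIM and AXL lay above all of the 21 libraries in CTRL 17, CTRL 44 and Lean 24. MSN did so in CTRL 17 and CTRL 44, and CAV1 in CTRL 44 and Lean 24. Of the genes listed as low in the line, the estrogen receptor gene ESR1 reached at most 88.3 and FOXA1, its cofactor, at most 27.6. Low ESR1 and FOXA1 are known of the labelled line. The receptor gene ERBB2, also listed as low, ran from 192 to 769 over all 24 (median 460 in the 21 libraries). GATA3, a luminal factor listed as low, ran from 253 to 708 (median 393) in the 21 libraries. ERBB2 and GATA3 were thus well above 0. No level that counts as low was set, so how far they go against that listing was not tested. The CDH1 counts of the 21 libraries go against the known lack of E-cadherin in the line, and the identity of the cells was not tested here.

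**Figure D1:**
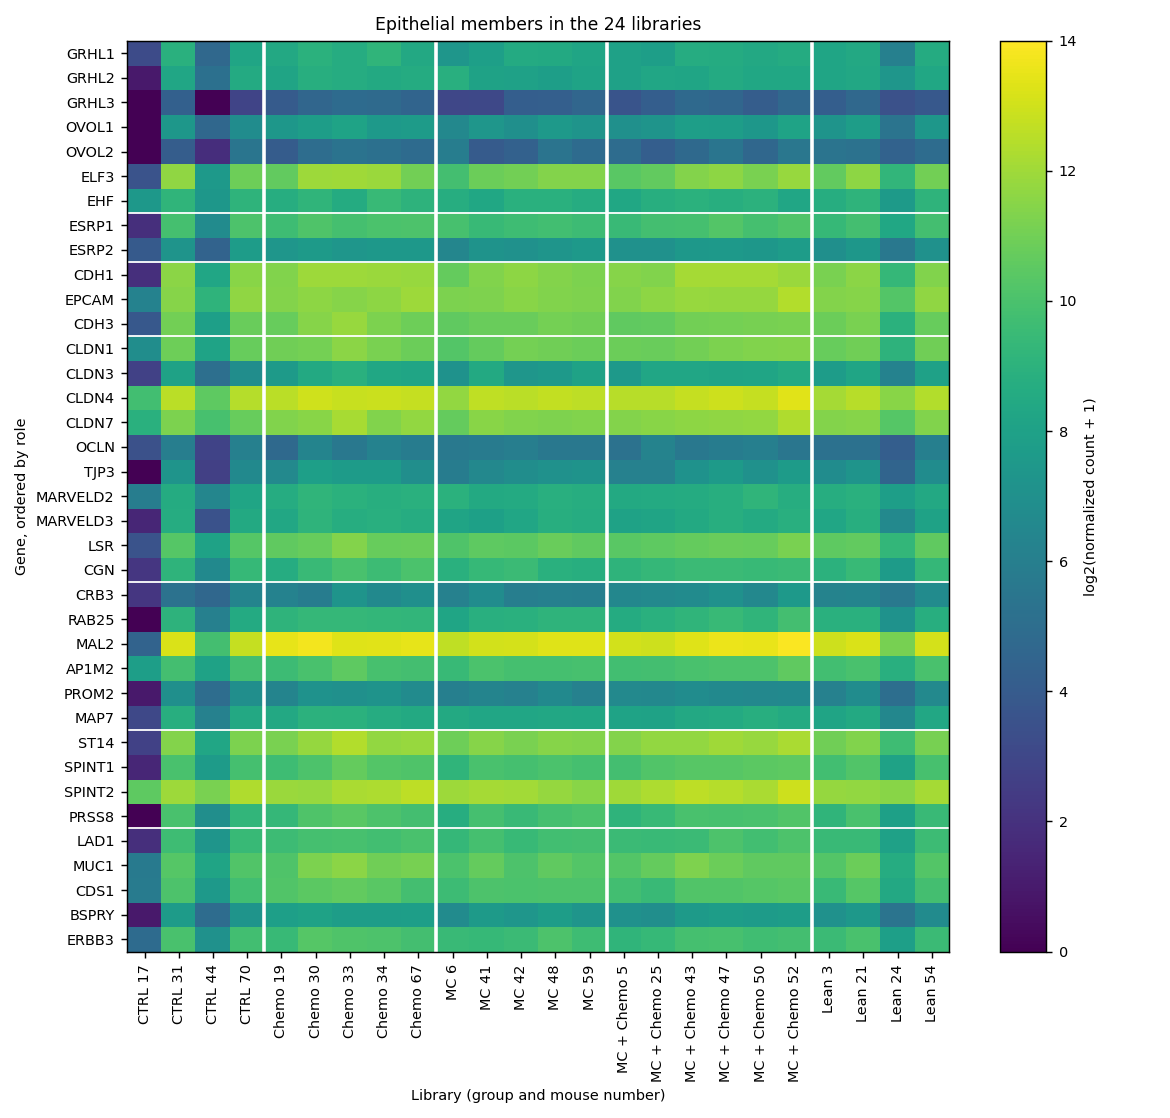
Each row is 1 of the 37 members, ordered by role with white lines between roles, and each column is 1 of the 24 libraries, with white lines between groups. The colour is log2 of the normalized count plus 1. CTRL 17 is the darkest column for 35 of the members, counting a tie at 0, with CTRL 44 and Lean 24 also darker than the rest in most rows.

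E-cadherin is described first. In CTRL, CDH1 had 2.73 normalized counts in CTRL 17, 2975 in CTRL 31, 312 in CTRL 44 and 2880.5 in CTRL 70. CTRL 17 and CTRL 44 thus lay below and CTRL 31 and CTRL 70 within the range of the treated tumors. In Chemo the values were 2635, 3929, 3892, 3837 and 3688, in MC 1656, 2621, 3097, 2657 and 2404, and in MC + Chemo they ran from 2623 (median 4113) to 4472. Lean 24 had 633 against 2311, 3043 and 2580.5 in the other Lean tumors. The value of CTRL 17 rests on 3 reads and was 0.0919% of the median of the 21 libraries (95% exact Poisson interval 0.0190 to 0.269%, counting error in CTRL 17 only). EPCAM, an epithelial surface adhesion protein, kept more of its level in CTRL 17, with 73.8 normalized counts there, 2778 in CTRL 31, 552 in CTRL 44 and 3268 in CTRL 70. CDH3, which encodes P-cadherin and is the neighbour of CDH1 in RefSeq gene order (GRCh38.p14), had 13.7, 2045, 238 and 1778 in the same order.

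The transcription factors split in how much was left in CTRL 17. GRHL2, the grainyhead-like factor best known for activating CDH1, had 1 read in CTRL 17 (0.911 normalized counts), 313 normalized counts in CTRL 31, 35.4 in CTRL 44 and 380.2 in CTRL 70. OVOL1, a zinc finger factor that represses mesenchymal genes, had 0 reads in CTRL 17, at least 62.6-fold below the median of the 21 libraries when 3 reads are taken as the limit that a count of 0 allows. Its normalized counts were 171 in CTRL 31, 25.03 in CTRL 44 and 113 in CTRL 70. ELF3, an ETS factor of epithelia, had 10.9, 3267, 186 and 1949.5 in CTRL 17, 31, 44 and 70. EHF, another ETS factor of epithelia, behaved otherwise. Its CTRL values were 175, 572, 171 and 551 in the same order, and Lean 24 had 199, so that the 3 low libraries held 37.4, 36.5 and 42.5% of the 21-library median with no gradient between them. GRHL1 had 8.20, 472, 25.9 and 302 in CTRL. GRHL3 and OVOL2 had few reads, with medians of 17.5 and 30.2 over the 21 libraries and 0 reads each in CTRL 17. The 7 transcription factors together had a median of 0.287% of their 21-library medians in CTRL 17, 8.57% in CTRL 44 and 42.5% in Lean 24.

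The splicing factors followed E-cadherin in order. ESRP1 had 2.73, 920.3, 107 and 1082 normalized counts in CTRL 17, 31, 44 and 70. ESRP2 had 14.6, 148, 20.7 and 211. In both genes CTRL 17 was lowest, then CTRL 44, then Lean 24, at 322 for ESRP1 and 47.3 for ESRP2.

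Among the tight junction genes, CLDN4, CLDN7, OCLN and MARVELD2 kept 13.7 to 17.7% of their 21-library median in CTRL 17, while several scaffold and partner genes were near 0. CLDN4 had 859 normalized counts in CTRL 17, 5989 in CTRL 31, 1503 in CTRL 44 and 5589 in CTRL 70. CLDN7 had 470.3, 2406, 959.9 and 1705 in the same order. CLDN1 and CLDN3 kept less in CTRL 17, 5.75 and 1.90% of the 21-library median. CLDN1, a sealing claudin, had 114, 1890.4, 275 and 1734 in CTRL. CLDN3, the neighbour of CLDN4 in RefSeq gene order, had 5.47, 263, 33.7 and 115.8. For OCLN, which encodes occludin, the CTRL values were 10.0, 62.8, 6.04 and 68.0. OCLN and EHF were the only members with fewer normalized counts in CTRL 44 than in CTRL 17. MARVELD2 (tricellulin), the neighbour of OCLN, had 60.2, 396, 86.3 and 302. TJP3, a scaffold protein under the junction, had 0 reads in CTRL 17, at least 48.7-fold below the 21-library median. MARVELD3, a relative of occludin, was at 0.477%, CGN (cingulin, a junction plaque protein) at 0.546% and LSR (angulin, at the corners between cells) at 0.712% of that median in CTRL 17. Counts of CLDN7, OCLN, CRB3 and AP1M2 may share reads with the annotated copies CLDN7P1, OCLNP1, CRB3P1 and AP1M2P1, which the deposited counts do not settle.

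In the serine protease system 3 of the 4 members were near 0 in CTRL 17 and 1 was not. ST14, which encodes the membrane protease matriptase, had 5.47 normalized counts in CTRL 17, 2750.1 in CTRL 31, 311 in CTRL 44 and 2395 in CTRL 70. PRSS8 (prostasin, which matriptase activates) had 0 reads in CTRL 17, at least 343-fold below the 21-library median. SPINT1, a matriptase inhibitor, had 1.82, 1004, 208 and 929.5. The second inhibitor, SPINT2, stood apart from these. SPINT2 had 1474 in CTRL 17, 3892 in CTRL 31, 2298 in CTRL 44 and 5221 in CTRL 70, which is 33.6% of the 21-library median in CTRL 17 and 52.4% in CTRL 44. In Lean 24 SPINT2 had 2886, just under the lowest of the 21 libraries (MC 59, 2907).

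The polarity and traffic genes ranged from 0 reads to a clear remainder in CTRL 17. MAL2, a protein of apical transport, had 20.96 normalized counts in CTRL 17, 9446 in CTRL 31, 890.0 in CTRL 44 and 7097 in CTRL 70. RAB25, an epithelial small GTPase of recycling vesicles, had 0 reads in CTRL 17, at least 199-fold below the 21-library median. AP1M2, a clathrin adaptor subunit of epithelia, kept 233 in CTRL 17 against 912, 272 and 894 in CTRL 31, 44 and 70. CRB3, which encodes a crumbs polarity protein, had 3.65, 37.9, 24.2 and 79.3. In CRB3 the ranges overlapped, since CTRL 31 lay below Lean 24 (49.3). PROM2, a protein of membrane protrusions, had 1 read in CTRL 17 and similar values in CTRL 44 (31.1) and Lean 24 (32.2). MAP7, a microtubule-associated protein, was at 2.07, 20.1 and 25.2% of the 21-library median in CTRL 17, CTRL 44 and Lean 24.

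The surface and remaining members lay between 0.334 and 5.10% of their 21-library medians in CTRL 17. MUC1, a transmembrane mucin, had 52.9 normalized counts in CTRL 17, 1258 in CTRL 31, 290.0 in CTRL 44 and 1189.8 in CTRL 70. ERBB3, a receptor partner of ERBB2, had 28.3, 1019.9, 135 and 866. Lowest of the 5 was LAD1 (ladinin, of the basement membrane) and highest CDS1, an enzyme of phospholipid synthesis. BSPRY, a B-box protein, had 1 read in CTRL 17.

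**Figure D2:**
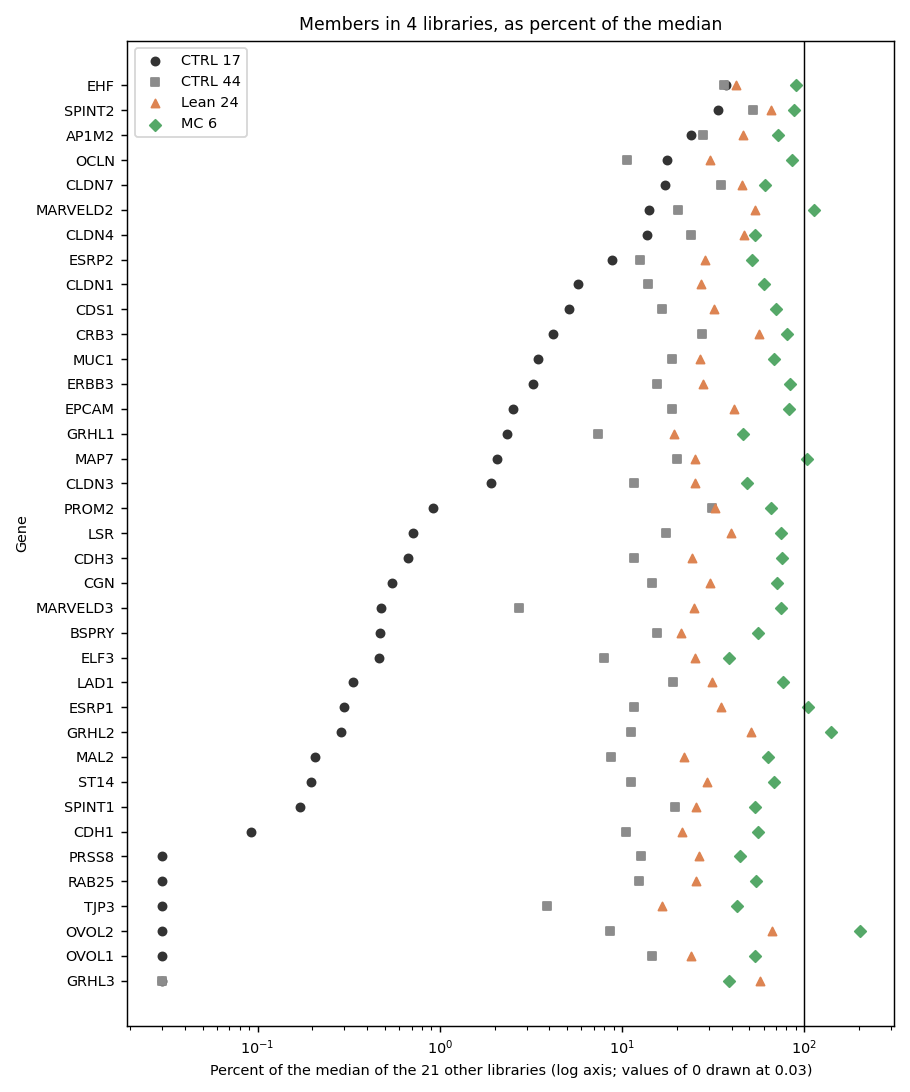
For each member, sorted by its value in CTRL 17, the points give its normalized count in CTRL 17, CTRL 44, Lean 24 and MC 6 as percent of the median of the 21 other libraries, on a log axis. CTRL 17 spreads from 0 to 37.4%, CTRL 44 spans 0 to 52.4%, and Lean 24 spans 16.6 to 66.6%.

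Over all 37 members, CTRL 17 was the lowest of the 24 libraries in 35 (in GRHL3 it shared 0 reads with CTRL 44), while it was lowest in 16.5% of the 16588 human genes tested. CTRL 17, CTRL 44 and Lean 24 all lay below the other 21 libraries in 34 members, against 6.74% of genes. The exceptions were GRHL3, OVOL2 and CRB3. They lay in the order CTRL 17, CTRL 44, Lean 24 below the others in 32 members, against 3.68% of genes. These shares describe the choice of the members and are no test of it. In CTRL 17, 20 members were under 1% of their 21-library median, 10 were between 1 and 10% and 7 between 10 and 50%. Those 7 were EHF, CLDN4, CLDN7, OCLN, MARVELD2, SPINT2 and AP1M2. Of all human genes with a mean normalized count above 30, 231 of 12671 (1.82%) were under 1% in CTRL 17, beside 18 of 35 members. Over the 37 members the median was 0.712% in CTRL 17, 14.6% in CTRL 44 and 29.4% in Lean 24. For the 20 members under 1% in CTRL 17, CTRL 44 had a median of 11.7% with quartiles of 8.71 and 14.9%. In Lean 24 the same 20 had a median of 26.1% with quartiles of 24.3 and 33.1%.

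The spread within the other 21 libraries was then described. The coefficient of variation of the members ran from 15.6% (MARVELD2) to 37.5% (TJP3), with a median of 23.4%, beside 19.2% for all 12673 genes with a mean above 30. The highest library exceeded the lowest by 1.76-fold (LAD1) to 4.80-fold (CRB3). MC 6 was the lowest of the 21 in 21 of 37 members, CDH1, ELF3, CLDN4, SPINT1 and MAL2 among them, against 11.2% of those 12673 genes. In the same library GRHL2, at 448 normalized counts, and OVOL2, at 60.9, were higher than in any of the other 23. The other MC tumors had GRHL2 at 267, 262, 233 and 276, and OVOL2 at 15.3, 19.4, 40.2 and 28.7. Chemo 33 was the highest of the 21 in 12 members, ELF3, ST14, PRSS8 and MUC1 among them (11.3% of genes). MC + Chemo 52 was the highest in 10, including EPCAM, CLDN4, CLDN7, SPINT2 and MAL2 (20.7% of genes). EHF was an exception there, since its lowest value of the 21, 306, was in MC + Chemo 52.

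Most members moved together over the 21 libraries. Of 666 pairs of members, 633 had a positive Pearson correlation of log2 normalized counts (median r = 0.54, median Spearman rho = 0.54). Pairs share libraries, scaling and treatment groups, so these are descriptions and have no p-value. TJP3, OVOL1 and ELF3 followed the mean of the other members most closely, each with r = 0.89, and with r = 0.85, 0.83 and 0.83 when Chemo 33 and MC 6, the libraries farthest from the median, were left out. CDH1 had r = 0.86 (0.82 without them). OVOL2 (r = 0.10), EHF (r = 0.16), OCLN (r = 0.21) and GRHL2 (r = 0.31) followed it least. For GRHL2 the low value rested on those libraries, since r was 0.57 without them. ST14 and its inhibitor SPINT1 had r = 0.89, and ST14 and SPINT2 had r = 0.60. Of the pairs that are neighbours in RefSeq gene order, CDH1 and CDH3 had r = 0.64, CLDN3 and CLDN4 r = 0.67, and OCLN and MARVELD2 r = 0.02.

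Of 9 genes listed as repressors of the programme, 8 were counted and ZEB1 alone was higher in CTRL 17, CTRL 44 and Lean 24 than in every other library. ZEB1, which binds and represses the CDH1 promoter, had 1344 normalized counts in CTRL 17, 229.5 in CTRL 31, 1376 in CTRL 44 and 183 in CTRL 70. It had 568 in Lean 24 and 70.8 to 420.1 in the 21 libraries. ZEB1 was high in the libraries where the members were low. CTRL 17 and CTRL 44 had nearly the same ZEB1 count, with CDH1 counts of 2.73 and 312. ZEB2 had 580 and 452 in CTRL 17 and CTRL 44 (194 to 814 in the 21 libraries), and SNAI1 had 12.8 and 21.6 (5.46 to 37.02). SNAI2 had 214 in CTRL 17, 387 in CTRL 44 and 149.8 in Lean 24, beside 70.5 to 215 in the 21. Within the 21 libraries ZEB1 and the mean of the members had r = -0.81 (rho = -0.72; r = -0.84 without Chemo 33 and MC 6; r = -0.70 for deviations from the group means). For SNAI2 r was -0.73, for ZEB2 0.20 and for SNAI1 -0.00121, with -0.62, 0.41 and -0.09 for deviations from the group means. Whether any of these repressors acted on the members was not tested. The mean of the members had r = 0.10 with the human share of the counts and 0.0244 with the human total.

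Vimentin was high in the same libraries. VIM, the intermediate filament gene of mesenchymal cells, had 71918 normalized counts in CTRL 17, 10488 in CTRL 31, 50209 in CTRL 44 and 9838 in CTRL 70. Lean 24 had 24619, and the 21 libraries had 4402 to 21956. Of 13 mesenchymal genes, VIM, AXL and FOSL1 were higher in all 3 low libraries than in the others, and FN1 (fibronectin) was lower in all 3. N-cadherin (CDH2), which the mesenchymal state is known for, was not raised, with 29.2 in CTRL 17, 35.4 in CTRL 44 and 83.5 in Lean 24 beside 37.9 to 242 in the 21. Of 40 further human epithelial genes that are no members, 25 were lower in all 3 than in every other library, JUP and F11R among them. Their sum had r = 0.91 with the mean of the members over the 21 libraries (0.96 without Chemo 33 and MC 6). Of the 11 interferon-stimulated genes counted, 9 were also lower in the 3 libraries than in all others. The summed normalized counts of the 11 were 3724 in CTRL 17, 7771 in CTRL 44 and 21320 in Lean 24, beside 33413 to 81110.4 in the 21 libraries. Within the 21 libraries that sum followed the mean of the members less closely, with r = 0.52 (0.27 for deviations from the group means). The part of these genes in the result was not tested.

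**Figure D3:**
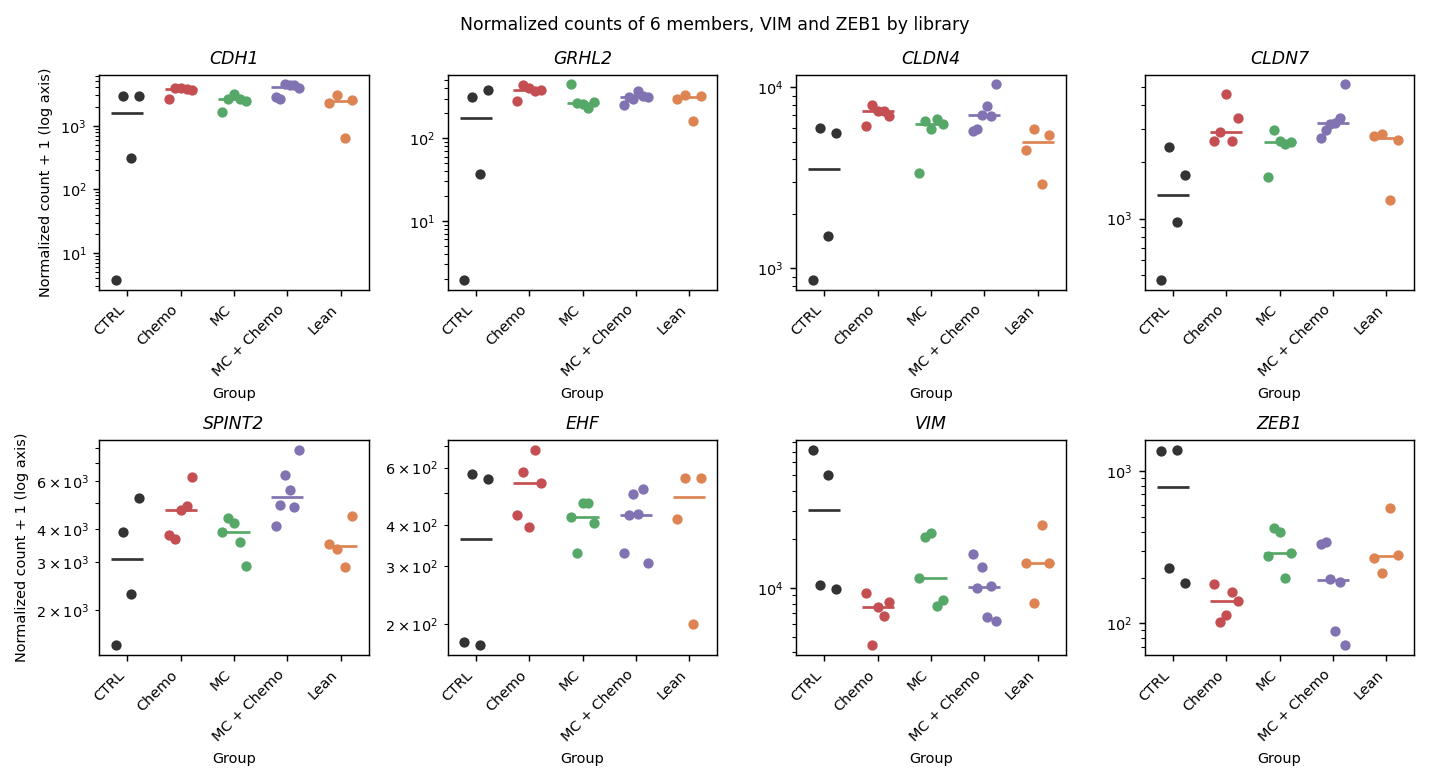
Each point is the normalized count plus 1 of 1 library, on a log axis, for 6 members and for VIM and ZEB1, with a line at the group median. In CTRL the points fall into a low and a high pair for the members and into a high and a low pair for VIM and ZEB1, while 1 Lean point lies apart in the same direction, in SPINT2 only by a little.

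Each treatment was then compared with CTRL by edgeR over 16434 human genes, to ask which transcripts the treatments changed. A gene was called when its Benjamini-Hochberg adjusted p was below 0.05, its mean normalized count above 30 and its fold change above 1.5. These comparisons share the CTRL libraries, and the members were selected with them known, so nothing about the members is read from the counts of calls. In MC + Chemo versus CTRL all 37 members had positive log2 fold changes, with a median of 1.04, beside a median of -0.02 over all genes. CLDN7 was the only member called, at 1.30 on the log2 scale with an SE of 0.32 (edgeR adjusted p = 0.0415), and 0.456% of all genes were called higher. That call was lost without CTRL 17 (log2 fold change 1.01, edgeR adjusted p = 0.133), CTRL 44 (1.18, 0.114) or any 1 of MC + Chemo 5, 43, 47, 50 and 52 (1.14 to 1.35, 0.0516 to 0.0931). Without CTRL 31 or CTRL 70, 6 and 5 members were called. For fits that left out 1 library, the share of all genes called was not computed. Leaving out CTRL 17 alone gave a median of 0.64 for the members, and leaving out CTRL 31 alone 1.56. At an unadjusted p below 0.05, 12 members and 9.19% of genes were higher. CLDN7 had 2696 to 5170.2 in the 6 MC + Chemo tumors (median 3204), all above the highest CTRL value of 2406. Every MC + Chemo library exceeded every CTRL library for CLDN7, CRB3 and LSR, and for 2.63% of genes. After CLDN7, the lowest unadjusted p belonged to CRB3 (log2 fold change 1.64 with an SE of 0.46, edgeR adjusted p = 0.0596), SPINT2 (0.78, SE 0.27, 0.0962), MARVELD2 (1.01, SE 0.34, 0.0974), AP1M2 (0.89, SE 0.31, 0.1035) and CLDN4 (1.05, SE 0.38, 0.1099). CDH1 itself had a log2 fold change of 1.27 with an SE of 0.73 and an edgeR adjusted p of 0.308, and its CTRL values spanned 2.73 to 2975. EHF had the smallest change, 0.17 (SE 0.29). DESeq2 called 6 members (CLDN3, CLDN4, CLDN7, MARVELD2, CRB3 and SPINT2) and 2.18% of genes higher.

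Without CTRL 17, CTRL 44 and Lean 24, a setting chosen after the data were seen, the picture in MC + Chemo versus CTRL changed. The median log2 fold change of the members was 0.22, 26 of 37 were positive, and 0 were called by edgeR or DESeq2. By edgeR 0 of all 16977 genes were called in this setting, so its 0 says nothing about the members. For DESeq2 no share of all genes called was computed here, so its 0 is not read either. At an unadjusted p below 0.05 edgeR had 3 members higher (CLDN7, CRB3 and ST14) and EHF lower. The share of all genes at that p was not computed for this setting. CLDN7 had 0.73 (SE 0.26, edgeR adjusted p = 0.306) and CRB3 0.95 (SE 0.37). EHF had -0.44 (SE 0.20) and GRHL2 -0.16. Each CTRL mean then rests on CTRL 31 and CTRL 70 alone.

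**Figure D4:**
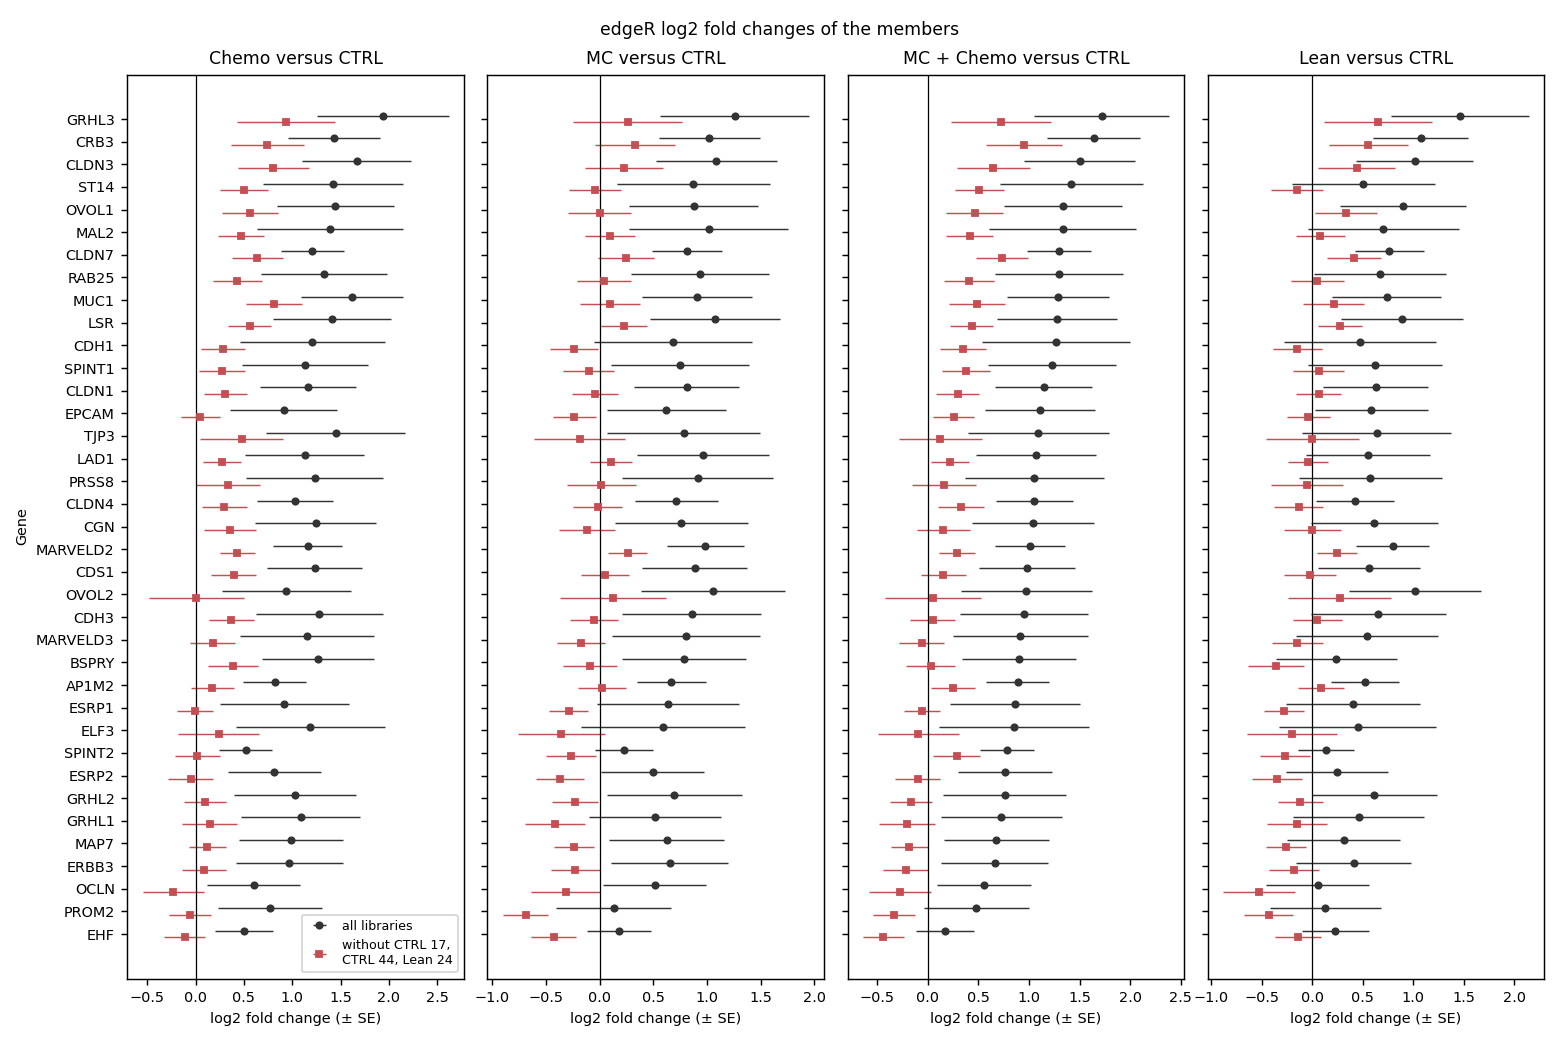
Points are edgeR log2 fold changes of each member with bars of 1 SE, for 4 groups against CTRL, with all libraries (circles) and without CTRL 17, CTRL 44 and Lean 24 (squares). With all libraries every point lies above 0, and without the 3 libraries the members lie on both sides of 0 in each comparison.

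Chemo versus CTRL gave the same direction in all 37 members. The median log2 fold change was 1.16, 0 members and 0% of genes were called higher by edgeR, and 13 members and 7.84% of genes were higher at an unadjusted p below 0.05. DESeq2 called CLDN7, MARVELD2, CRB3 and MUC1, and 1.11% of genes. MUC1 had 1125, 2433, 3032, 1993 and 2228 in Chemo, of which only Chemo 19 lay below CTRL 31 (1258), and 1.62 on the log2 scale with an SE of 0.53 (edgeR adjusted p = 0.1303). CLDN7 had 1.21 (SE 0.33, 0.0948), MARVELD2 1.16 (SE 0.36, 0.117), CRB3 1.43 (SE 0.47, 0.134), CLDN3 1.66 (SE 0.57, 0.144) and GRHL3 1.94 (SE 0.68, 0.156). Without CTRL 31 alone, 8 members were called, and without CTRL 70 alone 3. The share of all genes called was not computed for these fits, so nothing about the members is read from them. Without the 3 libraries the median was 0.29, with 32 of 37 positive and 0 called by edgeR (0 of all 16977 genes). At an unadjusted p below 0.05, 5 members were higher there (MUC1, LSR, CLDN7, MARVELD2 and CLDN3). The share of all genes at that p was not computed.

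MC versus CTRL gave smaller values, with a median of 0.78. Again all 37 were positive and 0 were called by edgeR (0% of genes) or by DESeq2 (0.0548% of genes), with 3 members (MARVELD2, CLDN7 and CRB3) and 4.79% of genes higher at an unadjusted p below 0.05. MARVELD2 had 483, 367, 378, 455 and 415 in MC and 0.98 on the log2 scale with an SE of 0.36 (edgeR adjusted p = 0.406). CLDN7 had 0.81 (SE 0.32), CRB3 1.02 (SE 0.47), AP1M2 0.67 (SE 0.32), CLDN3 1.09 (SE 0.56) and CLDN4 0.71 (SE 0.39). The median was 0.39 without CTRL 17, 0.50 without CTRL 44, 1.31 without CTRL 31 and 1.18 without CTRL 70. Without the 3 libraries it was -0.05, 14 of 37 were positive and PROM2 was lower at an unadjusted p below 0.05 (log2 fold change -0.69, SE 0.21, edgeR adjusted p = 0.930). No share of all genes at that p was computed in this setting.

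Lean versus CTRL, fitted to all 24 libraries, had all 37 positive with a median of 0.57. By edgeR 0 were called (0% of genes), 4 members (CRB3, CLDN7, MARVELD2 and GRHL3) and 2.77% of genes were higher at an unadjusted p below 0.05, and DESeq2 called 0 (0% of genes). CRB3 had 76.3, 79.2, 49.3 and 107 in Lean and 1.07 on the log2 scale with an SE of 0.47 (edgeR adjusted p = 0.685). CLDN7 had 0.76 (SE 0.34), MARVELD2 0.79 (SE 0.36), GRHL3 1.46 (SE 0.68), CLDN3 1.01 (SE 0.58) and OVOL2 1.02 (SE 0.65). The median was 0.18 without CTRL 17, 0.27 without CTRL 44, 1.11 without CTRL 31 and 0.96 without CTRL 70. Without the 3 libraries it was -0.04 and 15 of 37 were positive.

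MC + Chemo versus Chemo uses CTRL only for the shared estimate of the spread. Here the members had a median of -0.13, 9 positive and 28 negative, 0 called by edgeR or DESeq2 (0% of genes) and 0 higher at an unadjusted p below 0.05 (3.29% of genes). The lowest unadjusted p belonged to EHF, with -0.33 (SE 0.27, edgeR adjusted p = 0.684), and to SPINT2, with 0.26 (SE 0.24). MUC1 had -0.33 (SE 0.45), BSPRY -0.36 (SE 0.50), GRHL1 -0.36 (SE 0.54) and MAP7 -0.31 (SE 0.47). None of the 37 differences passed the threshold, and 0.684 was the lowest edgeR adjusted p among them. Without the 3 libraries the median was again -0.13, and MAP7 (-0.30, SE 0.14, edgeR adjusted p = 0.310) and EHF (-0.33, SE 0.15, 0.334) were lower at an unadjusted p below 0.05. No share of all genes at that p was computed in this setting, so nothing about the members is read from it. The response to MC in the presence of chemotherapy minus that in its absence was negative in 36 of 37 members, with 0 called (0% of genes) and only MARVELD2 lower at an unadjusted p below 0.05 (log2 difference -1.14, SE 0.47, edgeR adjusted p = 0.511), beside 3.93% of genes. Without the 3 libraries the median of that difference went from -0.96 to -0.07.

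Genes outside the set were fitted in the same models. In MC + Chemo versus CTRL, ZEB1 fell by 1.97 on the log2 scale (SE 0.49, edgeR adjusted p = 0.0430) and VIM fell by 1.78 (SE 0.46, edgeR adjusted p = 0.0481), the only genes edgeR called of the 8 repressors and 13 mesenchymal genes. DESeq2 called these and, in the other direction, CDH2 (log2 fold change 1.35) and FN1 (0.89). Without CTRL 17, CTRL 44 and Lean 24 both values were near 0, with -0.04 for ZEB1 (SE 0.43) and 0.03 for VIM (SE 0.39). Both calls were also lost without CTRL 17 alone (edgeR adjusted p = 0.162 for ZEB1 and 0.212 for VIM) and without CTRL 44 alone (0.141 and 0.128). They were lost as well without any 1 of MC + Chemo 5, 43, 47, 50 and 52 (edgeR adjusted p from 0.0516 to 0.105), and that of VIM without MC + Chemo 25 (0.0579). ZEB2 had -0.42, SNAI1 0.42 and SNAI2 -0.68, with edgeR adjusted p from 0.168 to 0.610. With the 3 libraries left out, ZEB2 had -0.49, SNAI1 0.41 and SNAI2 -0.00425, and SNAI2 had -0.22 without CTRL 44 alone. Of the 40 further epithelial genes 35 were positive with a median of 0.76, and 0 were called by edgeR (10 higher at an unadjusted p below 0.05, and 2 called by DESeq2). Their median was 0.04 without the 3 libraries. ISG15, an interferon-stimulated ubiquitin-like protein, was called higher, at 1.71 on the log2 scale with an SE of 0.33 (edgeR adjusted p = 0.0305), the only one edgeR called of 11 interferon-stimulated genes. All 11 were positive, 10 were higher at an unadjusted p below 0.05, and DESeq2 called 8. When the 3 libraries were left out, ISG15 had 1.07 (SE 0.23, edgeR adjusted p = 0.222), and all 11 were again positive, with a median of 0.54. DESeq2 still called ISG15 in that setting (log2 fold change 1.08, DESeq2 adjusted p = 0.00561). By edgeR 6 of the 11 were higher there at an unadjusted p below 0.05, and no share of all genes at that p was computed there. For ISG15 the edgeR adjusted p rose to 0.104 when CTRL 17 was left out, to 0.0762 for CTRL 44, to 0.0713 for MC + Chemo 47 and to 0.0585 for MC + Chemo 52. ISG15 had 543 in CTRL 17 and 849 in CTRL 44, below CTRL 31 (2773) and CTRL 70 (2155).

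The murine tables of the same libraries held 30 of the 37 namesakes, among them Cdh1, Epcam and Mal2, with 51413 counts in all beside 1177858 counts of the 30 human genes. How reads that match both genomes were assigned is not given in the sources used here. In CTRL 17, 25 of the 30 murine namesakes were under 50% of their own 21-library median, with a median of 15.7%. Of 16592 murine genes with a 21-library median above 0, 11.3% were under 50% of it in CTRL 17, and the median was 99.5%. Murine Mal2 was at 0.236% on 1 read there, beside 0.206% on 23 reads for human MAL2. Cldn4 was at 11.2% on 49 reads, beside 13.7% for CLDN4. Of the namesakes of the members with the lowest p, Cldn7 was at 27.5%, with 2 reads in CTRL 17 and 200 counts in all libraries. Marveld2 was at 40.6% on 20 reads and Spint2 at 17.1% on 2 reads. Counting error is large for percents that rest on 1 or 2 reads. Others parted from their human partner, with Cdh1 at 32.9% and Cds1 at 93.9% beside 0.0919 and 5.10%. Summed normalized counts of the namesakes were 368 in CTRL 17, 1078 in CTRL 44 and 1241 in Lean 24, beside 1404 to 3403 in the 21. The 9 murine keratinocyte genes counted, markers of host skin, summed to 665 in CTRL 17, 370.3 in CTRL 44 and 428 in Lean 24, beside 399.8 to 1108 in the 21. These genes did not move together in CTRL 17. The basal keratins Krt5 (0.960), Krt14 (7.68) and Krt15 (0.960), and Sfn (20.2), lay below all of the 21 libraries there, Krtdap (40.3) and Dmkn (258) lay above all of them, and Krt10 (331), Trp63 (0) and Perp (5.76) lay within their range. Sharing of reads between the genomes, and host epithelium as a source of the murine counts, were not tested.

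**Figure D5:**
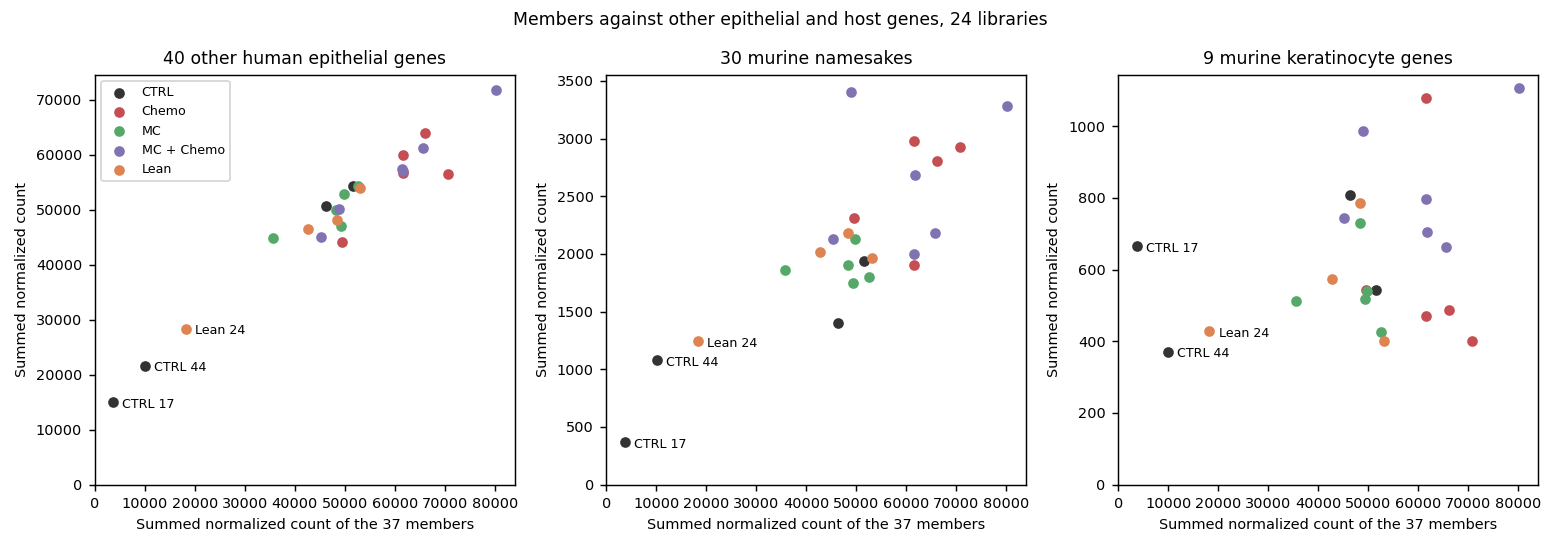
Each point is 1 library; the x axis is the summed normalized count of the 37 members, and the y axes are the summed normalized counts of 40 other human epithelial genes, 30 murine namesakes and 9 murine keratinocyte genes. CTRL 17, CTRL 44 and Lean 24 are the lowest 3 in the first and second plots and lie within or near the range of the other libraries in the third.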

How the data were processed

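Tumor RNA was read as QuantSeq 3′ libraries with forward reads, which the authors aligned with BlueBee software. They deposited raw read counts per gene, 1 table per genome, and the same counts as a normalized signal, that is counts divided by DESeq2 size factors (version 1.22.2 and the murine build GRCm38 in the submitters' processing notes; the human build is not given in the sources used here). The genes with the fewest reads had been removed, since the lowest sum over libraries was 72. Members were matched by symbol and joined by Ensembl identifier. The members and all gene lists were chosen with earlier results of these data known. All 37 members were named. Values of single libraries are given by role, mostly for CTRL. Fold changes are given for the 6 lowest unadjusted p per comparison of 2 groups. Of the other lists VIM, ZEB1, ZEB2, SNAI1, SNAI2 and those called were named. Further genes were chosen after their values were seen. Human counts were tested by the quasi-likelihood F test of edgeR 4.0.16 (limma 3.58.1, R 4.3.3; two-sided, TMM scaling, filterByExpr), on 20 libraries for the high-fat groups and 24 for Lean, with Benjamini-Hochberg adjustment over all genes tested. DESeq2 1.42.0 was the main alternative; others were another scaling, no filter, other samples in the fit and leaving out libraries. The scripts were tested on simulated data. Of 47 pairs of libraries within groups, 0 were identical. Depth was 7796231 to 17621273 human and 3664056 to 9892470 murine counts per library; intervals cover counting error only, as the reads carry no molecular identifiers. Keratinocyte genes Krt1, Dsg3, Lor, Ivl, Flg and Sbsn, and PGR, TWIST2 and OAS1, were not analysed here. No sequences were used.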

Additional observations from a re-analysis of the deposited data

Results flagged for a closer look

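For 20 members and 5 groups, 100 combinations were examined for a tumor far from the others of its group (Dixon's test), and 8 were found. A single combination is flagged by chance about 1 time in 20. The members share libraries and moved together, so the 8 cannot be set against that rate. In Lean 24, GRHL1 (68.38 normalized counts; 301.6 to 388.5 in the other Lean tumors), CLDN1 (539; 1711 to 2006) and CLDN7 (1251; 2620 to 2828) were far below their group. In MC 6, CLDN4 (3382; 5921 to 6647 in the other MC tumors) and SPINT1 (572.4; 922.7 to 1060 in the others) were far below, while GRHL2 (447.9; 233 to 275.7) was far above. CDH1 in Chemo 19 (2635; 3688 to 3929 in the other Chemo tumors) was low, and CLDN7 in MC + Chemo 52 (5170; 2696 to 3407 in the others) was high. CTRL gave none. Its low libraries come as a pair. Dixon's test sets the gap beside the most extreme value against the whole range, and a second low library narrows that gap. The lack of a flag in CTRL is thus not read as a sign of even libraries.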

How the results depend on the processing

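The median log2 fold changes kept their sign under DESeq2, other scaling, no filter, fits of 2 groups and the other reading of MC + Chemo 5. Leaving out each library in turn gave medians of 0.79 to 1.66 for Chemo, 0.39 to 1.31 for MC, 0.64 to 1.56 for MC + Chemo and 0.18 to 1.11 for Lean against CTRL, and -0.23 to -0.05 for MC + Chemo against Chemo. Members called for Chemo versus CTRL were 4 with DESeq2 and 0 to 8 on leaving out each library. For MC + Chemo versus CTRL they were 6 with DESeq2, 0 with only the 2 groups fitted and 0 without the 3 libraries with RNA cleanup. Those with cleanup were Lean 3, MC 41 and MC 42, none of them in the 2 groups compared. On leaving out each library 0 to 6 members were called. Without CTRL 17, CTRL 44 and Lean 24 they were 0 by edgeR (0 of all 16977 genes) and by DESeq2. The shares of all genes called were not computed on leaving out each library, with 2 groups fitted or without the cleanup libraries. Nor was the DESeq2 share without CTRL 17, CTRL 44 and Lean 24. In that comparison EHF ranged from -0.066 (without CTRL 17) to 0.46 (without CTRL 31). Without CTRL 17, CTRL 44 and Lean 24, a setting chosen after seeing the data, these changed sign: ESRP1 -0.055, ESRP2 -0.10, GRHL1 -0.21, GRHL2 -0.16, ELF3 -0.10, EHF -0.44, OCLN -0.27, MARVELD3 -0.060, PROM2 -0.34, MAP7 -0.18 and ERBB3 -0.22. So did the medians of MC (-0.05) and Lean (-0.04) against CTRL. The call of VIM was lost with another scaling (edgeR adjusted p = 0.0503), no filter (0.0511) and only the 2 groups fitted (0.205), and those of ZEB1 (0.207) and ISG15 (0.205) with only the 2 groups fitted. VIM (0.0588) and ZEB1 (0.0601) were lost without the libraries with RNA cleanup. That setting leaves fewer samples, and any further cause was not tested. No paired analysis was possible because no mouse number occurs in more than 1 group. The labels name separate mice, and depth limits members with 3 or fewer reads in CTRL 17.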

Other observations

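The proliferation genes were not low in the libraries where the members were low, and most lay above the other 21 libraries in some of them. MKI67, a marker of cycling cells, had 3690 normalized counts in CTRL 17, 3439 in CTRL 31, 3251 in CTRL 44 and 2643 in CTRL 70 (1379 to 3439 in the 21 libraries). Of the 10 proliferation genes 0 were lower in CTRL 17, CTRL 44 and Lean 24 than in every other library, while BIRC5 was higher in all 3. TOP2A and CCNB1 lay above the 21 in CTRL 17 and CTRL 44, and PCNA and MCM2 in CTRL 44 and Lean 24. MKI67 and AURKA did so in CTRL 17 only, and MCM5 in CTRL 44 only. CDK1 and PLK1 lay within the range of the 21 in all 3. In MC + Chemo versus CTRL the median log2 fold change of the 10 proliferation genes was -0.14, with 0 called by edgeR or DESeq2 and 2 lower at an unadjusted edgeR p below 0.05. No share of all genes lower at that p was computed. Without CTRL 17, CTRL 44 and Lean 24 the median was 0.12, 8 of the 10 were positive and 0 were lower at an unadjusted edgeR p below 0.05. Of the 4 genes expected low in the line that were counted, GATA3, a luminal transcription factor, had 101 in CTRL 17, 544.6 in CTRL 31, 201 in CTRL 44 and 304 in CTRL 70, and was below the other 21 libraries in CTRL 17, CTRL 44 and Lean 24 (158). KLF8, listed as a repressor, also lay below in all 3, with 41.01, 62.2 and 72.4 beside 85.7 to 227 in the 21 libraries.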
